A study of Homo sapiens with 24 samples.

Results

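The 10 mRNAs described here encode members of the BCL2 family: MCL1, BCL2L1, BCL2L11, BBC3, PMAIP1, BAX, BAK1, BIK, BAD and BID. They were chosen by name from 58676 gene rows in the count tables. All 10 were found, and 9 of them passed the filter on low counts that left 13136 genes for testing. BIK did not pass it. The BCL2 family decides whether the outer mitochondrial membrane is opened during apoptosis. MCL1 and BCL2L1 (which encodes BCL-xL) hold the membrane closed, BAX and BAK1 form the pores, and the BH3-only proteins BCL2L11 (BIM), BBC3 (PUMA), PMAIP1 (NOXA), BIK, BAD and BID either neutralise the guardians or activate the pore formers. MCL1 is known for the short life of both its mRNA and its protein, so that a block of transcription removes it early.

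HepG2, an established human liver cancer line, was transfected with the AllStars negative control siRNA (siControl) or with pre-designed siRNA to IGF2BP1, to IGF2BP2 or to IGF2BP3. These genes encode 3 relatives that bind mRNA. From 48 h after the cells had been split into new plates, transcription was blocked with actinomycin D (5 µg per ml) for 0, 3 or 6 h until collection. All 12 groups carried an siRNA and held 2 libraries each, and the 0 h groups had no time in actinomycin D before collection. Each transfected plate was split over the 3 time points, and the labels do not say that the replicates were separate cultures, so that p-values measure the spread between these libraries, which may be technical. The study asked whether the IGF2BP proteins change how long mRNAs last.

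Depth was 31843248 to 74252042 gene reads and 50889 to 119088 reads of the ERCC spike-in per library. The targets fell in their own knockdowns, from a median of 693 to 116 CPM (gene reads scaled to a common library total) for IGF2BP1, from 200 to 46.3 CPM for IGF2BP2 and from 118 to 33.4 CPM for IGF2BP3 (6 libraries each). All 8 hepatocyte and HepG2 markers passed the filter, with a summed level of 66000 to 97900 CPM. Of 4 fibroblast, 4 leukocyte and 4 endothelial markers, 1 of each list passed, with summed levels of 5.01 to 13.2, 772 to 1920 and 0.934 to 2.7 CPM. PTPRC, CD3E, DCN and KDR had a median of 0 CPM at 0 h. The leukocyte sum was nearly all LYZ, which was lower at 0 h in each knockdown than in siControl (log2 -0.38, -0.60 and -0.17 for IGF2BP1, IGF2BP2 and IGF2BP3). The part of LYZ in the results below was not tested.

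In GRCh38 the guardians lie at chr1:150560895-150579738 (MCL1, minus strand) and chr20:31664452-31723989 (BCL2L1, minus). The pore formers lie at chr19:48954815-48961798 (BAX, plus) and chr6:33572547-33580293 (BAK1, minus). The BH3-only genes lie at chr2:111119378-111168444 (BCL2L11, plus), chr19:47220822-47232766 (BBC3, minus), chr18:59899996-59904305 (PMAIP1, plus), chr22:43110750-43129712 (BIK, plus), chr11:64269830-64284704 (BAD, minus) and chr22:17734138-17774770 (BID, minus). Some exons overlap a neighbour on the other strand: 41.339% of the exon length of BCL2L1 is shared with ABALON, 23.653% of BAD with GPR137 and 10.783% of BCL2L11 with MIR4435-2HG. Whether the counting used strand is not given in the sources used here, and reads from these stretches may then be uncertain.

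AU-rich elements in 3′ untranslated regions are classic marks of unstable mRNAs, and AUUUA is their core. The canonical GENCODE transcripts of the members, read on the transcript strand, were searched for AUUUA, for its longer form AUUUAUUUA, for the Pumilio-type motif UGUANAUA and for UGGAC, which IGF2BP proteins are known to bind when its A is methylated. Overlapping matches were counted, and each AUUUAUUUA would also have counted as AUUUA. The stretch of 30 bases richest in AUUUA is shown for members whose loss is described below, with the motif in capitals. Where several stretches were equally rich, the first was taken. For BCL2L1 and BID the stretch holds 1 copy. BBC3 holds no AUUUA, and its UGUANAUA match is shown instead.
MCL1: gaccuaAUUUAacuggugaaAUUUAaagug
BCL2L11: uuguauAUUUAuuuucugcuuAUUUAaugu
PMAIP1: uaauuuuAUUUAuuuugccuAUUUAuaauu
BCL2L1: cuaguuuucuagaAUUUAucacacuucugu
BID: aaugaaaauguccAUUUAcacguauuugaa
BBC3: uauaugcgcugcUGUAGAUAccggaaugaa
These stretches lie at chr1:150576217-150576246 (MCL1), chr2:111167090-111167119 (BCL2L11), chr18:59903966-59903995 (PMAIP1), chr20:31665768-31665797 (BCL2L1), chr22:17735356-17735385 (BID) and chr19:47220905-47220934 (BBC3) of GRCh38, on the strands given above. MCL1 held 10 copies of AUUUA in 2817 bases of 3′ untranslated region, BCL2L11 held 8 in 4213, PMAIP1 5 in 1552, BCL2L1 3 in 1491, BID 2 in 1442 and BIK 1 in 407. BBC3 (978 bases), BAK1 (1251), BAD (379) and BAX (162) held none. Among the 11358 tested genes with such a region, 72.8% held AUUUA at least once, the median was 2 copies and the median length was 1324 bases. No member held AUUUAUUUA, which 7.7% of those genes did. UGUANAUA was present 5 times in BCL2L11 and once each in MCL1, BCL2L1 and BBC3, against 29.9% of genes with a match. UGGAC was present in 7 members, 5 times in BCL2L11, 3 times each in MCL1 and BBC3, 2 times each in BCL2L1 and BAK1 and once each in BAX and BID, and in 61.8% of genes. A match is a description of these letters, and which isoforms the cells used is not known from the counts.

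Before transcription was stopped, the guardians were the most abundant family mRNAs per length. In CPM per kb of exon over the 8 libraries at 0 h, BCL2L1 had a median of 54.3 (49 to 57), MCL1 of 30.3 (26.9 to 31.5) and BAX, the leading pore former, of 16.3 (14.7 to 17). BAK1 (7.89, 7.39 to 8.72), BID (7.4, 6.96 to 8) and BAD (6.45, 5.96 to 8.01) followed, and each of these neighbours overlapped with the next. BCL2L11 (4.31, 3.83 to 4.67) and the DNA-damage-induced BH3-only genes BBC3 (1.64, 1.33 to 1.89) and PMAIP1 (0.906, 0.631 to 1.07) stood apart from each other. BIK came last (0.343, 0.038 to 0.589). BCL2 itself, the founding member, had a median of 0.867 CPM at 0 h and did not pass the filter, and nor did BCL2A1, BCL2L10, BCL2L14, BCL2L15 or HRK. BCL2L10 had no read in any library. The plot of levels at 0 h shows every library.

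**Figure D1:**
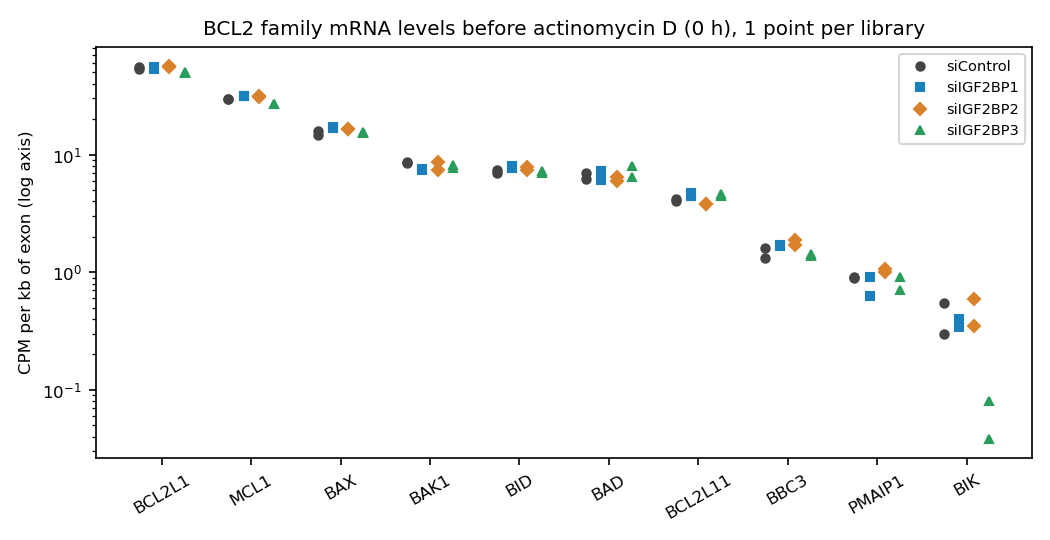
Level of each BCL2 family mRNA at 0 h in CPM per kb of exon (log axis), 1 point per library, coloured by siRNA with 2 libraries each. BCL2L1 (median 54.3) and MCL1 (30.3) lie above all others, and the 2 siIGF2BP3 libraries of BIK lie below the other 6.

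After 6 h in actinomycin D the family had separated into mRNAs that were nearly gone and mRNAs that remained. Amounts were set on the ERCC spike-in, which was added in proportion to total RNA, so that they are amounts per total RNA and not per cell. Relative to the siControl mean at 0 h, MCL1 stood at 18.5% and 18.1% after 3 h and at 8.67% and 7.46% after 6 h in the 2 siControl libraries. BBC3 stood at 6.23% and 14% after 3 h and at 4.58% and 3.2% after 6 h. BCL2L11 stood at 23.4% and 23.6%, then at 16.4% and 14.6%. Thus a guardian and 2 BH3-only mRNAs were lost together, and in each case the libraries of 3 h and of 6 h did not overlap.

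BCL2L1, the other guardian, was lost more slowly, with 54.7% and 54.5% left after 3 h and 35.1% and 30.6% after 6 h in siControl. PMAIP1 had 72.4% and 67.5% left, then 47.3% and 41.5%. The pore formers were retained for longer still. BAX had 83.7% and 82.8% left after 3 h and 68.3% and 62.9% after 6 h, and BAK1 had 75.6% and 82.7%, then 60.2% in both libraries. BID, which links death receptors to mitochondria once caspase-8 has cut it, had 91.5% and 76.7% left after 6 h. BAD, which growth factor signalling holds in check, had 96.2% and 77.3% left, and the higher of these lay just below its libraries at 3 h (96.4% and 98.3%).

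**Figure D2:**
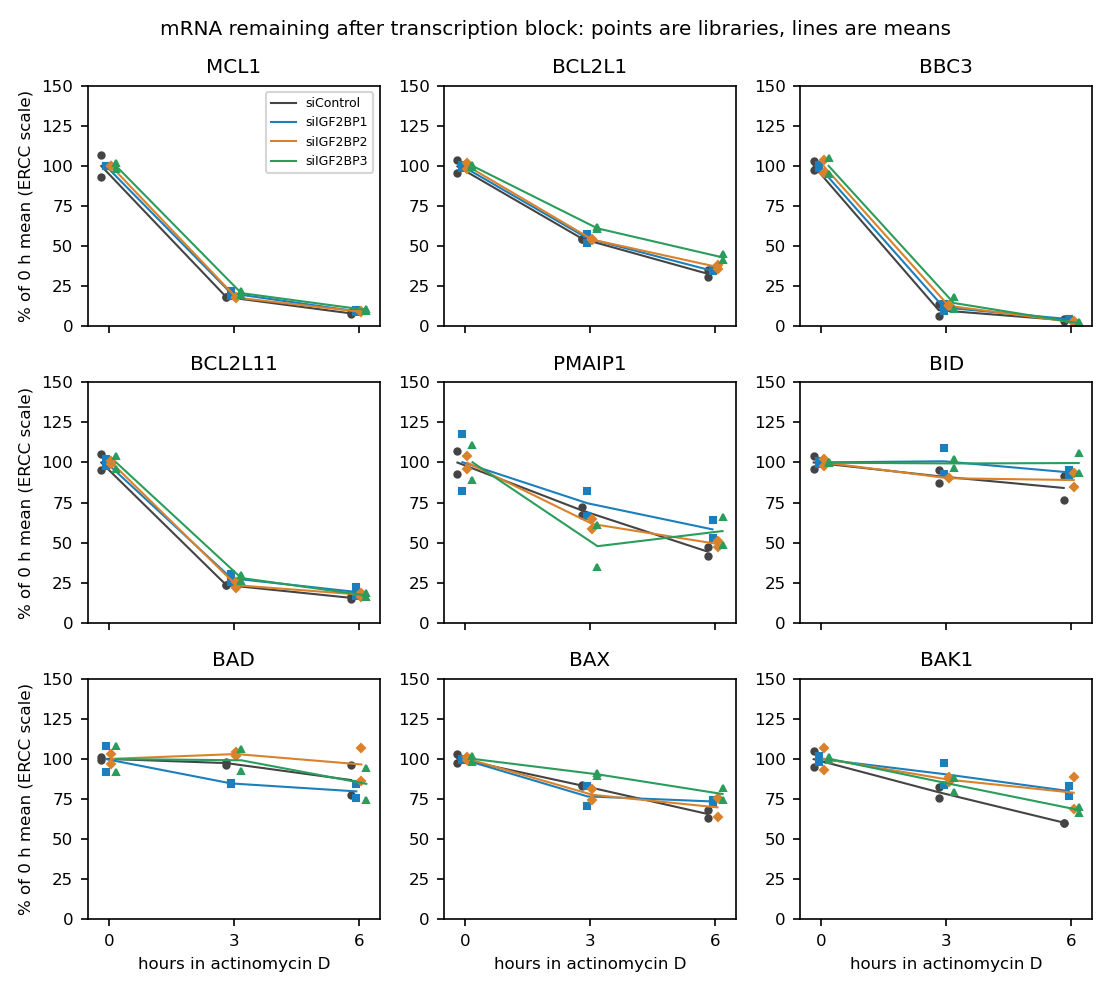
mRNA remaining, as a percentage of the mean at 0 h of the same siRNA on the ERCC scale, against hours in actinomycin D for the 9 members that passed the filter. Points are libraries, lines are means of 2, and colours mark the siRNA, set slightly apart along the time axis. MCL1, BBC3 and BCL2L11 drop steeply by 3 h in all conditions, while BID and BAD keep 74.4% or more in every library.

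The change over 6 h was tested with a slope on time for each siRNA (edgeR's quasi-likelihood test, Benjamini-Hochberg adjusted over all 13136 genes). In siControl 8 of 9 members fell, against 80.3% of all genes. The log2 change was -4.93 for BBC3 (95% interval -5.82 to -4.04, adjusted p = 4.92e-10). It was -3.65 for MCL1 (-4.34 to -2.97, adjusted p = 9.39e-10) and -2.71 for BCL2L11 (-3.45 to -1.97, adjusted p = 3.31e-07). These are losses far beyond the median of all genes, which was -0.88. BCL2L1 changed by -1.61 (-1.79 to -1.42, adjusted p = 2.73e-13) and PMAIP1 by -1.16 (-1.79 to -0.54, adjusted p = 0.00102). BAK1 changed by -0.73, BAX by -0.61 and BID by -0.25 (adjusted p = 3.48e-06, 7.09e-06 and 0.0181), and all 3 fell less than the median gene. The call for BID was lost without siControl 0 h replicate 1 (-0.20, adjusted p = 0.116) or siControl 6 h replicate 2 (-0.14, adjusted p = 0.212). BAD was at -0.20 (-0.50 to 0.093, adjusted p = 0.184) and did not pass the test.

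The order was much the same under each knockdown. In siIGF2BP1 8 of 9 members fell (all but BID), against 69.1% of all genes. In siIGF2BP2 7 fell, against 71.3%, and in siIGF2BP3 7 fell, against 67.2%, with BID and BAD short of the threshold in both. The median over all genes was -0.69, -0.71 and -0.65. With the knockdowns in that order, BBC3 was at -4.75, -5.39 and -5.54, MCL1 at -3.43, -3.49 and -3.32 and BCL2L11 at -2.41, -2.55 and -2.58. BCL2L1 followed with -1.53, -1.43 and -1.22. Among the mRNAs past the threshold, the pore formers fell least in siIGF2BP2 and siIGF2BP3, with -0.52 and -0.36 for BAX and -0.34 and -0.55 for BAK1. The less steep of these calls depended on single libraries. In siIGF2BP1 only 5 of 9 members fell without siIGF2BP1 6 h replicate 1, with BAD (-0.28, adjusted p = 0.153), BAK1 (-0.27, 0.0844) and PMAIP1 (-0.66, 0.117) lost. There BAD (-0.20, 0.299) and PMAIP1 (-0.52, 0.204) were also lost without 0 h replicate 2, and BAK1 (-0.31, 0.0598) without 0 h replicate 1. In siIGF2BP2 BAK1 was lost without 0 h replicate 1 (-0.25, adjusted p = 0.108) or 6 h replicate 1 (-0.20, 0.142), and in siIGF2BP3 PMAIP1 was lost without 0 h replicate 1 (-0.51, 0.199).

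The direction for the retained mRNAs depends on the scale. On the TMM scale, which follows the bulk of mRNAs and moves the median of all genes from -0.88 to -0.016 in siControl, BAX changed by 0.26, BAK1 by 0.14, BID by 0.61 and BAD by 0.65 there, and of these 4 values above 0 only that of BAK1 (adjusted p = 0.195) did not pass. MCL1 (-2.79), BBC3 (-4.09), BCL2L11 (-1.85) and BCL2L1 (-0.74) still fell, whereas PMAIP1 (-0.30, adjusted p = 0.339) no longer passed the test.

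**Figure D3:**
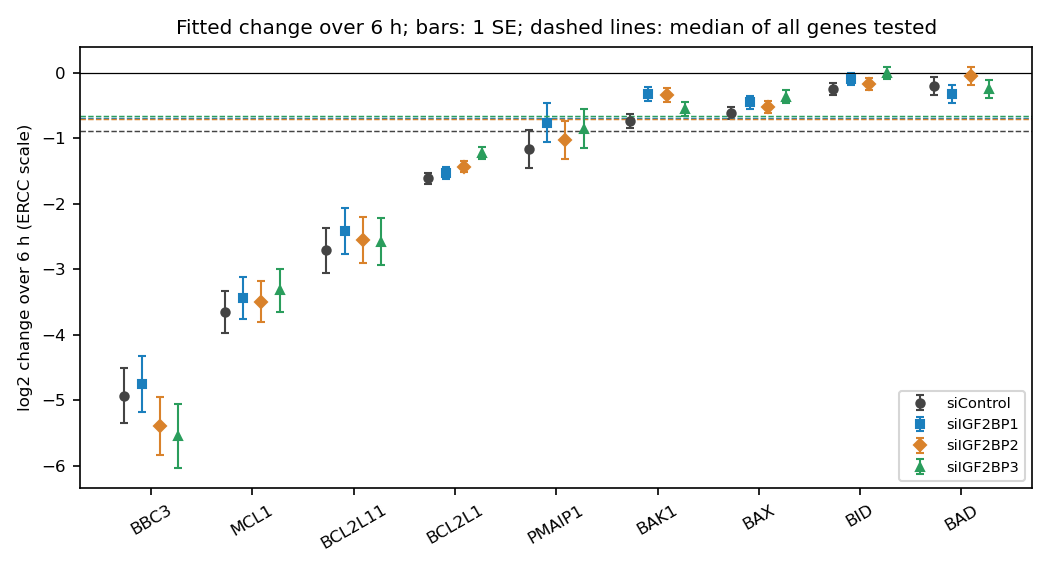
Fitted log2 change over 6 h on the ERCC scale for 9 members in each of 4 conditions, with bars of 1 SE. Dashed lines mark the median of all genes tested in each condition (-0.88 in siControl). BBC3, MCL1 and BCL2L11 lie well below these medians, and BAX, BAK1, BID and BAD lie above them.

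The loss of MCL1 and BCL2L11 slowed within the 6 h, and on average over the conditions that of BBC3 and BCL2L1 did. The change from 3 to 6 h minus the change from 0 to 3 h, averaged over the 4 conditions, was above 0 for 4 of 9 members, against 25.5% of all genes. It was 1.40 log2 for BCL2L11 (95% interval 1.15 to 1.65, adjusted p = 3.38e-33), 1.29 for MCL1 (1.12 to 1.47, adjusted p = 3.44e-56), 1.02 for BBC3 (0.28 to 1.76, adjusted p = 0.0119) and 0.22 for BCL2L1 (0.06 to 0.38, adjusted p = 0.0113). In siControl, MCL1 changed by -2.45 in the first interval and by -1.18 in the second, and BCL2L11 by -2.09 and then by -0.60. For both mRNAs the first interval thus held most of the loss. BBC3 changed by -3.26 and then by -1.40 in siControl, but by -2.70 and then by -2.89 in siIGF2BP3, where no slowing was seen. The median over all genes was 0.074, and -0.059 on the TMM scale, where the same 4 members passed with 1.26, 1.16, 0.87 and 0.087. PMAIP1 was at 0.43 (-0.19 to 1.05), and BAX, BAK1, BID and BAD lay between -0.08 and 0.10. BBC3 rests on 2 to 18 reads per library at 6 h, and it did not pass without siControl 3 h replicate 1 (adjusted p = 0.0789), siIGF2BP2 6 h replicate 2 (0.0531) or siIGF2BP3 6 h replicate 1 (0.195). BCL2L1 gave 0.14 (adjusted p = 0.625) with siControl alone and 0.18 (adjusted p = 0.072) without siIGF2BP1 3 h replicate 2.

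Half-lifetimes were computed under first-order decay, from the mean of the rate constants over 3 h and over 6 h, and are given with the range over the 8 choices of 1 library per time point. In siControl BBC3 had 1.06 h (0.917 to 1.2), MCL1 1.41 h (1.34 to 1.48) and BCL2L11 1.75 h (1.67 to 1.83). Only 1.14%, 4.13% and 8.06% of all genes with a half-lifetime had a shorter one. The median over those genes was 6.23 h. BCL2L1 had 3.58 h (3.29 to 3.93), on the short side of that median. PMAIP1 had 5.45 h (4.44 to 7.1), a range that includes the median. BAK1 had 8.53 h (6.79 to 11.5) and BAX 10.5 h (9.01 to 12.7), and the values for BID (23.6 h, 12.8 to 136) and BAD (42.6 h, 23.5 to 170) lie far beyond the 6 h that were sampled. Since the loss of MCL1 and BCL2L11 slowed with time, a single half-lifetime averages a faster early and a slower late phase. On the TMM scale the value of MCL1 was 1.78 h, that of BCL2L1 7.6 h and that of PMAIP1 28.4 h.

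As the unequal losses ran on, the make-up of the family's mRNA pool shifted from guardians toward pore formers and the longer-lived BH3-only members. Of the summed CPM per kb of all 10 mRNAs, MCL1 made up a median of 23.3% at 0 h (21.9% to 24.1% over 8 libraries), 7.92% at 3 h (7.33% to 9.11%) and 4.96% at 6 h (4.89% to 5.83%). The 3 ranges did not overlap. BCL2L1 held 41.4%, 42.2% and 37%, so that most of the fall in the guardians' joint share, from 65.1% to 50.3% and 42%, came from MCL1. BAX and BAK1 together rose from 18.7% (18.2% to 19.3%) to 28.1% and 32.1% (30.3% to 34%). The 6 BH3-only mRNAs rose from 16.2% to 21.5% and 25.9%, although BBC3 and BCL2L11 within them dropped from 4.56% to 1.43%. BID alone went from 5.85% to 12.6%. Per kb, MCL1 mRNA was 1.86 times as abundant as BAX mRNA at 0 h (1.75 to 2.02) and 0.232 times as abundant at 6 h (0.227 to 0.255). Shares of a sum are bound to each other, and these are given as a description with no test.

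**Figure D4:**
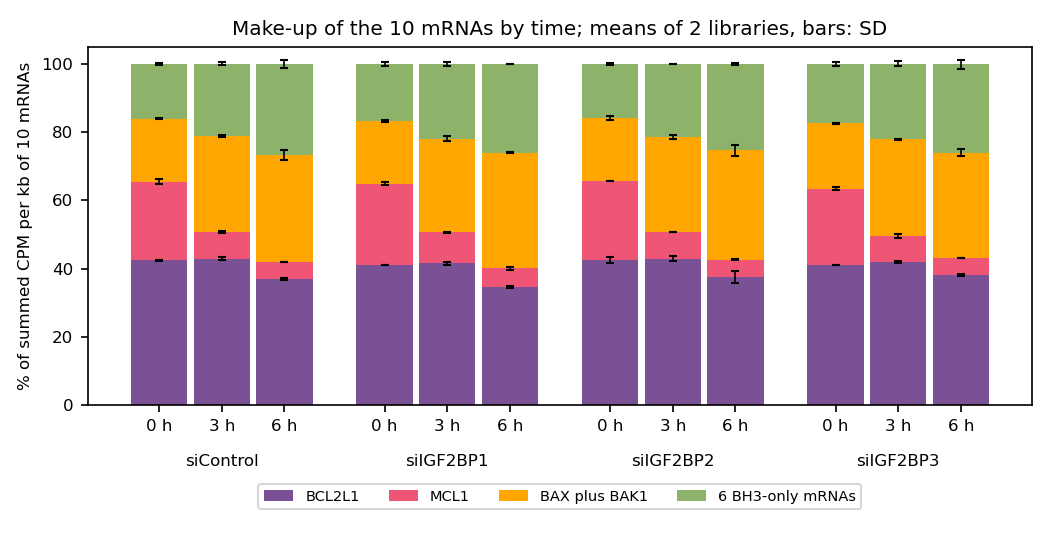
Share of the summed CPM per kb of the 10 mRNAs held by BCL2L1, by MCL1, by BAX plus BAK1 and by the 6 BH3-only mRNAs, for each condition and time. Bars are means of 2 libraries stacked from 0 and error bars are SD. The MCL1 share shrinks from 0 h to 6 h in every condition, from a median of 23.3% to 4.96% over all conditions.

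Knockdown of IGF2BP3 was accompanied by slightly lower levels of both guardians at 0 h. MCL1 was at 186 and 185 CPM in siControl and at 168 and 167 CPM in siIGF2BP3, and at 195 and 196 CPM in siIGF2BP1 and 194 and 192 CPM in siIGF2BP2. BCL2L1 was at 225 and 235 CPM in siControl and at 212 and 206 CPM in siIGF2BP3, with 223 and 231 CPM in siIGF2BP1 and 234 and 239 CPM in siIGF2BP2. For both guardians the siIGF2BP3 libraries lay below all 6 others. On the TMM scale MCL1 was 0.908 times siControl (log2 -0.14, 95% interval -0.23 to -0.045, adjusted p = 0.0334) and BCL2L1 0.912 times (log2 -0.13, -0.22 to -0.05, adjusted p = 0.0193). These were 2 of 9 members lower and 0 higher, against 4.47% of all genes lower. The other 7 lay between -0.13 and 0.16. With ERCC scaling, where the median of all genes was 0.086 in place of 0.0035, neither guardian passed (log2 -0.058 and -0.051, adjusted p = 0.79 and 0.815), and with no filter on low counts MCL1 did not (0.0819). MCL1 did not pass without any 1 of the 8 libraries at 0 h or without either siIGF2BP2 library at 3 h (adjusted p up to 0.19), and BCL2L1 did not pass without siControl 0 h replicate 2 (0.277), siIGF2BP3 0 h replicate 1 (0.06) or siIGF2BP3 0 h replicate 2 (0.235).

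In siIGF2BP1 and siIGF2BP2 no member differed from siControl at 0 h (edgeR's quasi-likelihood test), against 15.9% and 12.1% of all genes. At an unadjusted p under 0.05 there were 4 members in siIGF2BP1 and 1 in siIGF2BP2, against 3499 and 3032 of all 13136 genes. DESeq2 gave 1 and 0, the 1 being BAX in siIGF2BP1 (log2 0.15, adjusted p = 0.0448, and 0.0573 by edgeR). BAX was at 38.1 and 41.2 CPM in siControl, at 43.2 and 44 CPM in siIGF2BP1 and at 42.9 and 43 CPM in siIGF2BP2. Both knockdowns thus lay slightly above siControl without overlap, and neither passed by edgeR (log2 0.12, adjusted p = 0.175 in siIGF2BP2). BAK1 was at 18.8 and 19.3 CPM in siControl and at 16.8 and 16.3 CPM in siIGF2BP1 (log2 -0.18, -0.37 to 0.0081, adjusted p = 0.172). For BBC3 and PMAIP1, which have few reads, the intervals were wide, from -0.27 to 0.72 and from -0.83 to 0.37 in siIGF2BP1.

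Set against each other in the same fit, the knockdowns also differed for the guardians. MCL1 and BCL2L1 were lower in siIGF2BP3 than in siIGF2BP1 (log2 -0.23 and -0.13, adjusted p = 0.000131 and 0.0141), 2 of 9 members against 8.31% of all genes lower. The same 2 were lower in siIGF2BP3 than in siIGF2BP2 (log2 -0.20 and -0.18, adjusted p = 0.000999 and 0.00089), against 4.91% lower. BCL2L11 was lower in siIGF2BP2 than in siIGF2BP1 (log2 -0.26, adjusted p = 0.0406), 1 of 9 against 9.65% lower. None of these 5 passed with ERCC scaling.

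BCL2L11, whose product BIM binds all guardians, stood higher in siIGF2BP1 and siIGF2BP3 when the 3 time points were averaged, a contrast added after the data had been seen. It was at 27.3 and 28.2 CPM in siControl at 0 h, at 29.9 and 31.5 CPM in siIGF2BP1, at 25.8 CPM in both siIGF2BP2 libraries and at 30 and 31.1 CPM in siIGF2BP3. At 0 h the siIGF2BP1 and siIGF2BP3 libraries lay above the siControl libraries and the siIGF2BP2 libraries below them. None of these differences at 0 h passed edgeR's quasi-likelihood test. They were 0.16, -0.094 and 0.14 log2 in siIGF2BP1, siIGF2BP2 and siIGF2BP3 (adjusted p = 0.247, 0.614 and 0.406). The average over time also takes in the libraries after 3 h and 6 h in actinomycin D. Averaged over time on the TMM scale, the log2 difference was 0.26 (SE 0.061, adjusted p = 0.000767) in siIGF2BP1 and 0.18 (SE 0.062, adjusted p = 0.0219) in siIGF2BP3, and with ERCC scaling it was 0.32 and 0.36. In siIGF2BP1, MCL1 (0.13) and BID (0.15) were also higher and BCL2L1 (-0.06) lower, 4 of 9 members against 39.7% of all genes. In siIGF2BP3 BAK1 (-0.14) was lower, which with BCL2L11 made 2 of 9 against 32.3%, and in siIGF2BP2 no member passed (edgeR, 0 of 9) against 33.8%. With an unadjusted p under 0.05 there was 1 member in siIGF2BP2, against 5499 of all 13136 genes. With ERCC scaling BCL2L1 in siIGF2BP1 was at -0.00085 and BAK1 in siIGF2BP3 at 0.045, and neither passed. BID, BAK1, MCL1 and BCL2L1 were higher in siIGF2BP2 on that scale (0.18, 0.16, 0.19 and 0.18). The median of all genes at 0 h was there -0.022, 0.10 and 0.086 in siIGF2BP1, siIGF2BP2 and siIGF2BP3. The share of all genes past the threshold for this average with ERCC scaling is not given here. The medians at 0 h are for another contrast than this average. Whether the ERCC values set these members apart from all genes was not tested.

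BIK, a BH3-only protein of the endoplasmic reticulum, had too few reads for the filter but differed at 0 h in siIGF2BP3. At 0 h it had 30 and 21 reads in siControl, 28 and 12 in siIGF2BP1, 21 and 28 in siIGF2BP2, and 2 and 3 in siIGF2BP3. Per gene read the siIGF2BP3 libraries held 0.136 times the siControl level (exact 95% interval 0.0424 to 0.339, for counting error only). In the fit without a filter the log2 difference was -2.83 (SE 0.85, adjusted p = 0.0306), against -0.16 (SE 0.68) in siIGF2BP1 and 0.14 (SE 0.67) in siIGF2BP2, whose adjusted p was 1.0. That fit had 521 genes lower in siIGF2BP3, and their share of all genes tested without a filter is not given here. With the filter 4.47% of all genes were lower. At 3 h BIK had 8 and 1 reads in siControl and 5 and 3 in siIGF2BP3. At 6 h BIK had 11 and 9 reads in siControl and 10 and 5 in siIGF2BP3. The 2 conditions thus overlapped at 3 h and at 6 h, but the difference in change over 6 h did not pass the test (log2 3.51, SE 1.2, adjusted p = 0.422). On the ERCC scale BIK in siIGF2BP3 was at 123% ± 13.4 of its 0 h mean after 3 h and 295% ± 119 after 6 h (mean ± SD, n = 2). This rise, seen while transcription was blocked, rests on 2 to 10 reads per library, so the level at 0 h is uncertain.

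The knockdowns did not detectably alter how the members decayed. In the slope model no member passed the test for a difference from siControl in any knockdown (edgeR's quasi-likelihood test, 0 of 9 each, and 0 of 9 each by DESeq2), against 0.0152%, 0.0% and 0.0228% of all genes in siIGF2BP1, siIGF2BP2 and siIGF2BP3. At an unadjusted p under 0.05 there was 1 member in each, against 1436, 896 and 2113 of all 13136 genes in the same order. The median of all genes was shifted toward less loss in the knockdowns, by 0.19, 0.17 and 0.22 log2, and the median of the members by 0.18, 0.15 and 0.25. A p that misses the threshold does not show that decay was equal, and the intervals differed greatly between members.

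For MCL1 the difference in change over 6 h was 0.22 (95% interval -0.70 to 1.15) in siIGF2BP1, 0.16 (-0.76 to 1.08) in siIGF2BP2 and 0.33 (-0.60 to 1.26) in siIGF2BP3. The slope of MCL1 is poorly fitted by a straight line, which widens these intervals. Its remaining amount at 3 h was 18.3% ± 0.287 for siControl, 20.6% ± 2.07 for siIGF2BP1, 18% ± 0.237 for siIGF2BP2 and 20.8% ± 1.54 for siIGF2BP3 (mean ± SD, n = 2). Its half-lifetime was 1.41, 1.51 (1.45 to 1.56), 1.43 (1.41 to 1.44) and 1.53 h (1.47 to 1.6) in the same order. The range of each knockdown overlapped with that of siControl (1.34 to 1.48).

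BCL2L1 came nearest to a difference, in siIGF2BP3. After 6 h 44.9% and 41.2% remained there, against 35.1% and 30.6% in siControl, 34.3% and 35% in siIGF2BP1 and 35.8% and 38.3% in siIGF2BP2, and the siIGF2BP3 libraries lay above all others. The difference in change over 6 h was 0.39 log2 (SE 0.12, 95% interval 0.13 to 0.65, unadjusted p = 0.00399, adjusted p = 0.277), of which 0.22 was the shift of the median gene. With TMM scaling it was 0.17 (adjusted p = 1.0), and with the change from 0 h to 6 h alone it was 0.39 (adjusted p = 0.0588). Its half-lifetime was 4.56 h (4.36 to 4.77) in siIGF2BP3 and 3.58 h (3.29 to 3.93) in siControl. The median was 6.99 h over 10228 genes in siIGF2BP3 and 6.23 h over 11051 genes in siControl. These medians leave out the genes without a fall, 1959 in siIGF2BP3 and 1134 in siControl, and so are over different sets of genes.

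BAK1 had the largest differences of the pore formers, 0.41 (0.071 to 0.74, adjusted p = 0.424) in siIGF2BP1 and 0.39 (0.054 to 0.72, adjusted p = 0.643) in siIGF2BP2, neither past the threshold. After 6 h 76.8% and 83% of BAK1 remained in siIGF2BP1 and 60.2% in both siControl libraries. BAX lay between 0.087 and 0.25. Among BH3-only members, BCL2L11 lay between 0.13 and 0.30, with half-lifetimes of 1.75, 1.97, 1.79 and 1.92 h in siControl and the 3 knockdowns. BBC3 was at 0.18, -0.46 and -0.61, each with an SE of 0.63 or more, and its half-lifetime was 1.06 to 1.13 h in all conditions. PMAIP1 varied widely between libraries, with 34.8% and 60.7% left at 3 h in siIGF2BP3, and its differences of 0.40, 0.14 and 0.31 had SEs of 0.41 to 0.42.

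**Figure D5:**
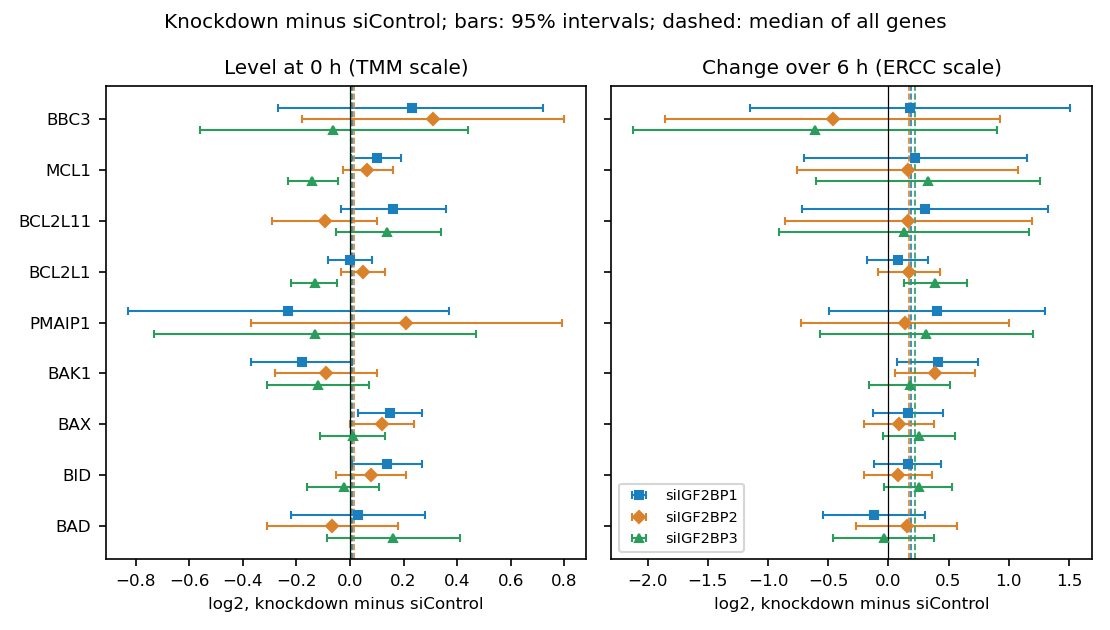
Each knockdown minus siControl for 9 members, as log2 differences with 95% intervals, for the level at 0 h (left, TMM scale) and the change over 6 h (right, ERCC scale). Dashed lines mark the median of all genes (right panel 0.19, 0.17 and 0.22 for siIGF2BP1, siIGF2BP2 and siIGF2BP3). MCL1 and BCL2L1 in siIGF2BP3 lie below 0 in the left panel.

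Among other genes of the pathway, lower or higher levels at 0 h were scattered. Over all genes tested, 9.43% were higher and 6.5% lower in siIGF2BP1, 6.65% and 5.47% in siIGF2BP2 and 4.93% and 4.47% in siIGF2BP3, and no list was tested against these shares. Of the 11 further BCL2 family genes 5 were tested. BCL2L2, which encodes the guardian BCL-w, was lower in siIGF2BP1 (log2 -0.31, SE 0.055, adjusted p = 7.73e-05), BMF, a BH3-only gene, was higher in siIGF2BP2 (0.55, SE 0.18, adjusted p = 0.0371), and none passed in siIGF2BP3. CYCS, which encodes the cytochrome c released through the pores, was lower in siIGF2BP1 (-0.22, SE 0.044, adjusted p = 0.000271).

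Of the 7 inhibitors of apoptosis and their antagonists, 2, 1 and 2 were higher in siIGF2BP1, siIGF2BP2 and siIGF2BP3 and 0 were lower. XIAP, which blocks caspases directly, was higher by 0.59 in both siIGF2BP1 and siIGF2BP3 (SE 0.07, adjusted p = 4.03e-08 and 1.44e-07). BIRC5 (survivin) was higher in all 3, by 0.25, 0.25 and 0.34. Of the 4 genes that control MCL1 protein turnover, 1 was higher in each knockdown. USP9X, which removes ubiquitin from MCL1, was at 0.16 in siIGF2BP1, and BTRC, part of a ubiquitin ligase, at 0.30 and 0.31 in siIGF2BP2 and siIGF2BP3. Of the 5 outer membrane channel and mitophagy receptor genes, 1 was higher and 3 lower in siIGF2BP3, led by VDAC1 at -0.47 (SE 0.035, adjusted p = 1.36e-12), and 1 was higher and 1 lower in siIGF2BP1. BNIP3L was lower in both (-0.30 in siIGF2BP1 and -0.33 in siIGF2BP3), and VDAC3 was higher in both (0.16 and 0.12). No gene of these 5 lists passed the test for a difference in decay. FBXW7, a ubiquitin ligase subunit that marks MCL1, shared the slowing of loss seen for MCL1, with 1.19 log2 between the intervals (SE 0.11, adjusted p = 1.05e-23), and BMF had 0.79 (SE 0.21, adjusted p = 0.00122).

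The mRNAs whose course over the 12 groups was most like that of MCL1 were DCP1B, FAM83G, ZNF263, TRMT5 and MCPH1. Likeness was the Euclidean distance between 12 ERCC-scaled log2 group means, each relative to siControl at 0 h, among 9744 genes with a mean of at least 5 CPM. Their distances to MCL1 were 0.419, 0.422, 0.456, 0.468 and 0.475, and the median over all genes compared was 6.92. In siControl DCP1B, which encodes a decapping cofactor, was at -2.27 log2 after 3 h and -3.54 after 6 h, and MCL1 was at -2.44 and -3.63.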

How the data were processed

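RNA-seq of polyA RNA was read for 24 libraries, 2 for each of 4 siRNAs at 3 time points. The authors trimmed single-end reads of 100 bases with Trimmomatic 0.39, aligned them to hg38 with HISAT2 2.1.0 and deposited raw HTSeq counts per GENCODE 29 gene and per ERCC spike-in. HTSeq's version and settings are not given in the sources used here. Spike-in was added at 0.02 µl per µg of total RNA. The 5 HTSeq summary rows (13.551 to 17.064% of reads) and 45 second copies of genes shared by the X and Y chromosomes were left out.

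Members and lists were chosen by name with earlier results of these data known. All members are named, and of each pathway list at most 4 genes past the threshold per comparison. Genes with at least 1 CPM in at least 2 libraries were tested with edgeR 4.0.16 in R 4.3.3 (two-sided quasi-likelihood tests, Benjamini-Hochberg adjusted over all genes, threshold 0.05). Levels at 0 h came from 12 group means with TMM scaling. Change over 6 h came from an intercept and a slope per siRNA, with library sizes set by ERCC reads. Intervals of 95% use 12 or 16 residual degrees of freedom. DESeq2 1.42.0 and other scalings, filters and models were alternatives. Scripts were tested on simulated data. Exon lengths, positions and 3′ untranslated regions are from GENCODE 44, and its symbols matched 58207 gene IDs. Some results of the apoptosome list are not reported here.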

Additional observations from a re-analysis of the deposited data

Results flagged for a closer look

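For 5 values the effects of 2 knockdowns on a level at 0 h differed by a test of the difference itself (edgeR's quasi-likelihood test, TMM scale, adjusted over all genes), a set of contrasts added after the data had been seen. MCL1 was lower in siIGF2BP3 than in siIGF2BP1 by a log2 difference of -0.23 (SE 0.043, adjusted p = 0.000131) and lower than in siIGF2BP2 by -0.20 (adjusted p = 0.000999). BCL2L1 was lower in siIGF2BP3 than in siIGF2BP1 by -0.13 (adjusted p = 0.0141) and lower than in siIGF2BP2 by -0.18 (adjusted p = 0.00089). BCL2L11 was lower in siIGF2BP2 than in siIGF2BP1 by -0.26 (adjusted p = 0.0406). With ERCC scaling the 5 values were -0.12, -0.20, -0.021, -0.18 and -0.15 in that order, and none passed the threshold.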

How the results depend on the processing

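Of 1464 values recomputed with 1 library left out, 1416 were rated the same, and of 461 under other alternatives 371 were. A tested value was rated the same if it kept its direction and side of the threshold. A half-lifetime was if it moved by less than its spread. A count of members was if it stayed near the main count, so that it could differ by some members. Libraries outside a comparison were also left out in turn, which can change little. The level at 0 h gave 1 member in siIGF2BP1 with DESeq2 and 0 in siIGF2BP3 with ERCC scaling. With 1 library left out the counts were 0 to 1 in siIGF2BP1 and 0 to 2 in siIGF2BP3, and the count of members that fell in siIGF2BP1 was 5 to 8. The difference in change over 6 h then ranged from -0.015 to 0.48 for MCL1 and from -0.00017 to 0.18 for BCL2L1 in siIGF2BP1, and from -0.086 to 0.42 for MCL1 in siIGF2BP2. In the change over 6 h DESeq2 lost BAD (adjusted p = 0.0581) and PMAIP1 (0.0583) in siIGF2BP1. Over all genes, ERCC scaling gave 649, 732 and 471 genes with another level at 0 h in siIGF2BP1, siIGF2BP2 and siIGF2BP3 (253, 563 and 388 of them higher), in place of 2093, 1593 and 1234 (1239, 874 and 647 higher). Differences in change over 6 h numbered 2, 0 and 3 genes in the slope model and 86, 72 and 195 from 0 h to 6 h alone. TMM moved the count of genes whose loss slowed or quickened from 3923 (3348 slowed) to 6937 (2839 slowed), and siControl alone gave 1651. On the TMM scale 5085 genes fell and 4773 rose in siControl over 6 h, in place of 10551 and 33.

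TMM scaling turned the fitted change over 6 h upward for BID (0.61), BAK1 (0.14) and BAX (0.26) in siControl, for BAD (0.35), BAK1 (0.35) and BAX (0.23) in siIGF2BP1, for BAK1 (0.32) and BAX (0.15) in siIGF2BP2 and for BAK1 (0.091) and BAX (0.29) in siIGF2BP3. From 0 h to 6 h alone on that scale the values were the same to 2 decimals, except 0.36 for BAD in siIGF2BP1 and 0.086 for BAK1 in siIGF2BP3. PMAIP1 did not pass in any condition on that scale. Of differences from siControl, BCL2L1 in siIGF2BP1 became -0.12 with TMM, -0.11 with TMM from 0 h to 6 h alone and -0.066 with TMM from 0 h to 3 h alone. In siIGF2BP2, MCL1 became -0.031, -0.028 and -0.008 under these settings and -0.029 from 0 h to 3 h on the ERCC scale, and BCL2L1 became -0.016 with TMM, -0.017 with TMM from 0 h to 6 h and -0.014 from 0 h to 3 h on the ERCC scale. The 0 h to 3 h fits and the combined ones were added after the data had been seen. The half-lifetime of MCL1 in siControl was 1.78 h with TMM and 1.64 h from the slope. By construction, TMM follows the bulk of mRNAs and ERCC the total RNA. Causes of the other shifts were not tested.

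Deviations of same-numbered replicates correlated from -0.059 to 0.268 over 66 pairs of groups (median -0.00127), and neither this nor the labels pair the samples. Whether a number marks a shared plate across time points is not given. With the replicate number as a block, the level in siIGF2BP3 still gave 2 members (MCL1 -0.14, adjusted p = 0.0245, BCL2L1 -0.13, adjusted p = 0.0147), and no other member's call changed. Depth limits BBC3, PMAIP1 and BIK, and half-lifetimes far beyond 6 h are not resolved.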
